A study of Mus musculus with 18 samples.

Results

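The genes described here encode the anti-apoptotic members of the Bcl-2 family in murine WEHI-231 B cells. They are the 7 survival genes Bcl2, Bcl2l1 (BCL-XL), Bcl2l2 (BCL-W), Mcl1 and the A1 paralogs Bcl2a1a, Bcl2a1b and Bcl2a1d, chosen by name and matched to the Ensembl identifiers of the count tables, which list 55487 genes. Of the 7, 6 were among the 15318 genes that passed the filter on low counts, and Bcl2l2 was not. WEHI-231 is a B cell lymphoma line derived from a BALB/c×NZB mouse that carries IgM on its surface. The 18 RNA sequencing libraries cover parental cells (genotype WT) and the clones #A-59 and #B-20 (TFEB knockout). Each was sampled without stimulation (0 h) and after 6 or 18 h with anti-IgM F(ab')2 fragments at 10 µg/ml. Each of the 9 groups holds 2 libraries from independent experiments. All 3 genotypes were grown in the same medium, and no group received a costimulus. The clones were obtained with CRISPR/Cas9 and crRNAs against exon 3 or 5 of Tfeb, followed by single-cell dilution. Each mutant is thus a single clone, and an effect of the Tfeb lesion cannot be told apart from other differences between clones.

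Anti-apoptotic Bcl-2 proteins sit at the outer mitochondrial membrane and hold back the effectors BAX and BAK, which would otherwise permeabilize it. BH3-only proteins such as BIM, NOXA and BMF bind into a groove of the survival proteins and free the effectors, so that the balance of both groups decides on mitochondrial apoptosis. In B cells, BCL2 is linked to the survival of mature and memory cells, MCL1 to nearly every stage including germinal centre and plasma cells, BCL-XL to the pre-B and immature stages, and A1 to mature cells after signals through the BCR and NF-κB. MCL1 is a short-lived protein, so its amount follows its mRNA and its degradation closely. Ligation of the BCR on WEHI-231 cells without costimulation is a classical model of antigen-induced B cell death.

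The Bcl2a1 paralogs lie close together on chromosome 9, and their sequences show what a read of 50 bases can and cannot separate. In GRCm38.p6, Bcl2a1d spans chr9:88723288-88731850, Bcl2a1a chr9:88956920-88962416 and Bcl2a1b chr9:89199273-89207838. Their coding sequences in GENCODE vM39 have 516 bases each and differ at 12 positions among the 3, of which 6 lie in the first 50 bases. Those bases are printed 5′ to 3′ as the place where the copies can best be told apart, with the differing positions in capitals. In GRCm39 they lie at chr9:88839104-88839153 on the plus strand, chr9:89081413-89081462 on the plus strand and chr9:88613723-88613772 on the minus strand.
Bcl2a1a: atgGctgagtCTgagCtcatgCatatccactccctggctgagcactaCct
Bcl2a1b: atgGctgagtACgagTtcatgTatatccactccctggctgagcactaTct
Bcl2a1d: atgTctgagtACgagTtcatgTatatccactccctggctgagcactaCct
Further into the coding sequence, bases 95 to 311 hold no difference at all. The first 50 bases of that run, identical in the 3 genes, are shown as an example of a read that no aligner could place on a single copy.
Bcl2a1a, Bcl2a1b and Bcl2a1d: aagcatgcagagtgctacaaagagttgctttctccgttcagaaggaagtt
Of the 467 windows of 50 bases in the coding sequence, 201 (43.0%) are identical in the 3 paralogs. Over whole transcripts, 66.4% of the 50-base words of Bcl2a1a, 74.1% of Bcl2a1b and 75.0% of Bcl2a1d also occur in another gene, against none of the words of Mcl1, 5.22% for Bcl2, 7.26% for Bcl2l1 and 9.94% for Bcl2l2. For Bcl2a1b, 56.0% occur in another Bcl2a1 copy, and the rest of its shared words only in the model gene Gm29094. The shared words of Bcl2a1a and Bcl2a1d all occur in another Bcl2a1 copy. The reference is C57BL/6 sequence, and WEHI-231 comes from other strains, so the positions that separate the copies may differ in these cells. The options of the read counting for reads with several matches are not given in the sources used here. The 3 paralogs are therefore read mainly as the sum of their counts, called Bcl2a1 below, and each single paralog as uncertain.

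The split of the Bcl2a1 counts over the paralogs was similar in all libraries. Bcl2a1b took 38.0 to 51.8% of the sum, Bcl2a1d 31.3 to 41.8% and Bcl2a1a 15.5 to 23.4%. No library had Bcl2a1a as its leading copy. The sum came to 133 to 713 counts per library, the lowest in parental cells at 18 h. A further copy, Bcl2a1c, had 5 to 26 counts. Exons of the model gene Gm29094 cover 401 of the 826 exonic bases of Bcl2a1b on the same strand, and that gene had 0 counts in all 18 libraries. Reads over exons of both genes may have been left out of both, so the 0 does not show that Bcl2a1b lost no reads.

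**Figure D1:**
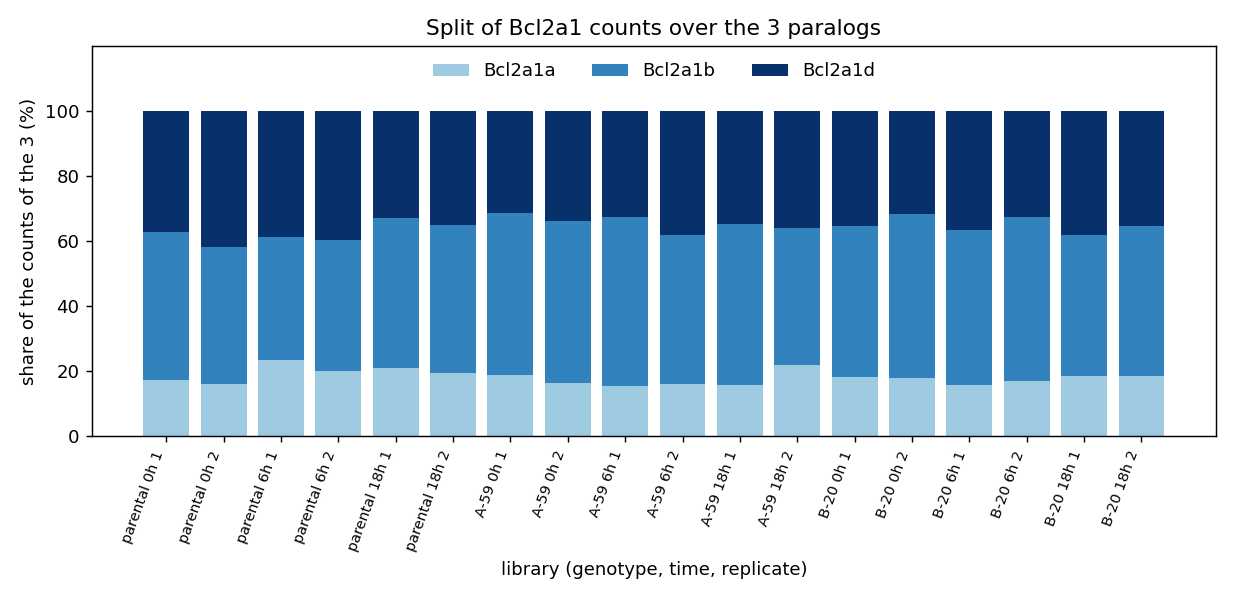
Share of the counts of the 3 Bcl2a1 paralogs (%, y axis) in each of the 18 libraries (x axis, by genotype, time and replicate), stacked to 100%. Bcl2a1b is the widest band in most libraries, at 38.0 to 51.8%, and Bcl2a1a the narrowest in each, at 15.5 to 23.4%.

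The libraries held between 11223588 and 29655262 counts (median 19846544), with the fewest in parental cells at 18 h, replicate 1. The targeted gene Tfeb stood at 79.1 to 99.8 CPM (counts per Mio, TMM-scaled) in parental cells, whereas #A-59 had 25.5 to 40.5 CPM and #B-20 had 34.2 to 54.0 CPM, so that its mRNA was lowered and not lost. The B cell genes Cd79a (14842 to 41250 counts per library), Ighm (40093 to 102002) and Pax5 (19457 to 59542) were abundant in all libraries, whereas 6 T cell markers summed to 1.76 to 6.07 CPM. The 5 myeloid markers summed to 1.83 to 9.001 CPM in parental cells, while #A-59 had 7.75 to 27.8 CPM and #B-20 had 2.70 to 7.05 CPM, mostly through Itgam with up to 502 counts, while Lyz2 and Cd14 had at most 1 count. As these are bulk samples, fewer cells that express a gene and less RNA per cell cannot be told apart.

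Mcl1 was by far the most abundant survival transcript. To compare genes with each other, CPM values were divided by the length of the merged exons in kb. On that scale, Mcl1 (chr3:95656944-95663179 in GRCm38.p6) reached 225 to 677 CPM per kb, with a median of 416. It held 86.7 to 96.4% of the summed level per kb of the members. Bcl2a1 followed with 11.1 to 39.8 CPM per kb (2.07 to 9.60%), and Bcl2 (chr1:106538176-106714290) had 6.57 to 19.5 CPM per kb (1.29 to 4.25%). Because Bcl2 has 9213 exonic bases and the Bcl2a1 genes 819 to 863, Bcl2 had the higher counts but the lower level per kb at the median. Reads that match several Bcl2a1 copies could have been dropped, or counted on each copy. That would lower or raise the Bcl2a1 level, and taking the sum does not correct it. The shares of the members, and the order of Bcl2a1 and Bcl2, are uncertain to that extent. Bcl2l1 (chr2:152758732-152833803) lay at 0.987 to 2.54 CPM per kb (0.181 to 0.651%). The ranges of Bcl2l1 and Bcl2a1 did not touch, and neither did those of Mcl1 and any other member.

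Bcl2l2 (chr14:54883366-54890858), which encodes BCL-W, was close to the limit of detection. It had 1 to 8 counts per library, or 0.0492 to 0.362 CPM, and no more than 0.0233% of the level per kb of the members. Of its 5401 exonic bases, 594 overlap the model gene Gm20521, which had 0 counts in all 18 libraries. Here too, reads over exons of both genes may have been left out of both. With so few counts, a difference in Bcl2l2 between groups was not detectable at this depth, and it entered no test.

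**Figure D2:**
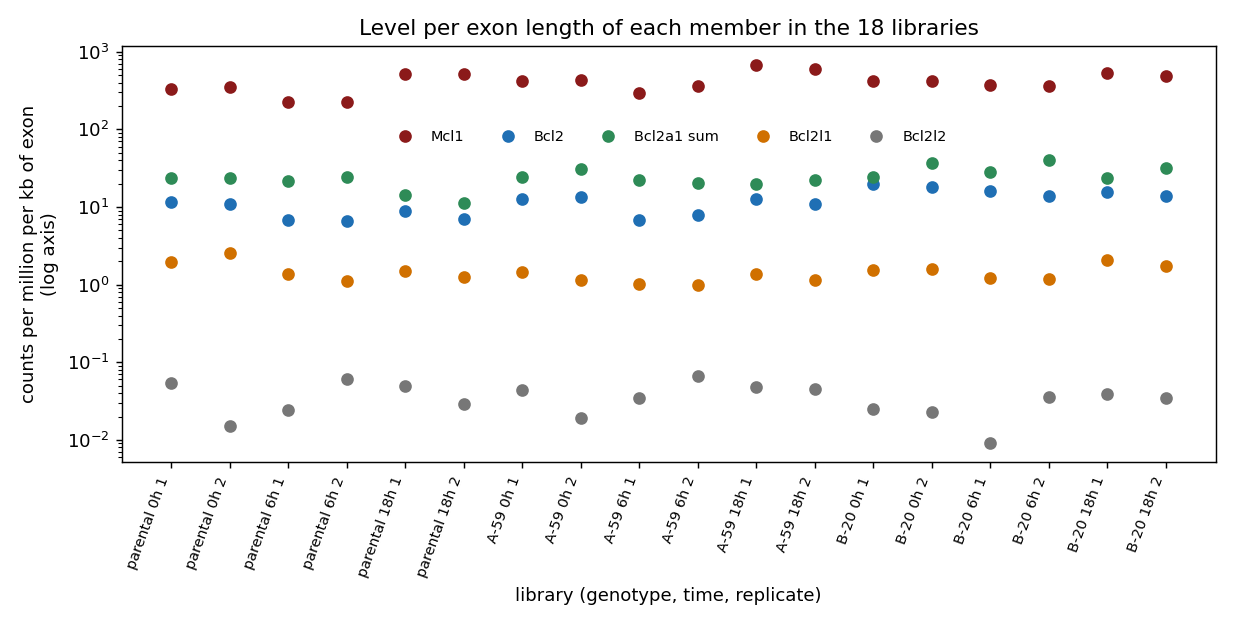
Level of each member in CPM per kb of exon (y axis, log scale) in each of the 18 libraries (x axis), 1 point per library. Mcl1 lies above all other members at 225 to 677, Bcl2a1 and Bcl2 lie between 6.57 and 39.8, Bcl2l1 stays below 2.54 and Bcl2l2 below 0.0670.

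The balance between Mcl1 and Bcl2 shifted with time. The ratio of Mcl1 to Bcl2 per kb was 29.1 and 32.1 in unstimulated parental cells, 32.8 and 34.7 at 6 h and 57.7 and 74.6 at 18 h. In #A-59 it was 33.3 and 32.5, then 42.2 and 45.8, then 53.8 and 54.1. In #B-20 it was 21.2 and 23.4, then 23.5 and 25.8, then 34.5 and 35.4. Within each genotype, the libraries at 18 h lay above those at 0 and 6 h, and at each time the #B-20 libraries lay below those of the other genotypes. These ratios are a description, with no test.

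**Figure D3:**
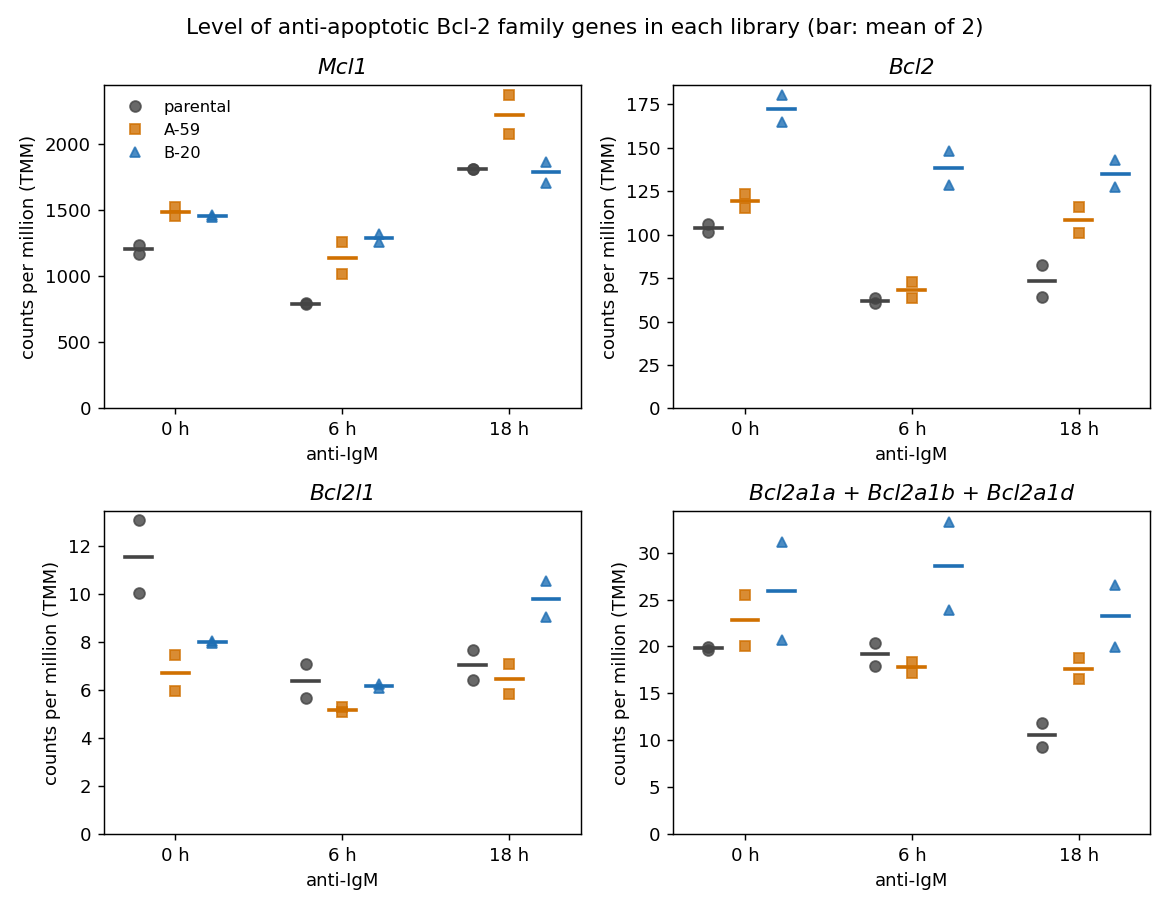
CPM (y axis, from 0) of Mcl1, Bcl2, Bcl2l1 and the Bcl2a1 sum at 0, 6 and 18 h of anti-IgM (x axis) in parental cells, #A-59 and #B-20, with 1 point per library and a bar at the mean of 2. Mcl1 is lowest at 6 h and highest at 18 h in each genotype, Bcl2 is highest in #B-20, and Bcl2a1 is lowest in parental cells at 18 h (11.9 and 9.33).

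Differences between groups were tested with the quasi-likelihood test of edgeR, and p-values were adjusted after Benjamini and Hochberg over all 15318 genes. A gene passed the test at an adjusted p under 0.01 and was a differentially expressed gene (DEG) if its log2 fold change was also above 1 or below −1. Over 22 comparisons, the 6 tested members gave 29 results that passed, of which 7 were DEGs. Of all genes, 0.0392 to 38.3% passed and 0.0326 to 13.5% were DEGs, by comparison. In 15 comparisons at least 1 member passed. Of the member results against unstimulated cells of the same genotype, 8 were lower and 2 higher. Over all genes, parental cells had 475 higher and 649 lower at 6 h and 2509 and 2482 at 18 h. There, #A-59 had 376 and 565, then 2254 and 2622, and #B-20 had 63 and 134, then 1741 and 1747. Of the member results against parental cells, 9 were higher and 1 lower. The 9 include Bcl2 of #B-20 at each time and the sequence-sharing Bcl2a1b and Bcl2a1d, so they are not 9 separate results. Among all genes, the #A-59 calls split into 780 higher with 685 lower (0 h), 1748 with 1725 (6 h) and 728 with 870 (18 h). The #B-20 calls split into 618 higher with 1020 lower, 954 with 1225 and 873 with 1309, in the same order of times. Comparisons that share a control group are not independent of each other, which holds for the responses at 6 and 18 h and for both clones against parental cells.

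The first question was how the survival genes respond to BCR ligation in parental cells. Within 6 h, Mcl1, Bcl2 and Bcl2l1 fell and Bcl2a1 did not pass the test. Mcl1 had 1168 and 1234 CPM in unstimulated parental cells, 786 and 795 after 6 h and 1805 and 1809 after 18 h. The groups were fully separated, with the lowest values at 6 h and the highest at 18 h. At 6 h, Mcl1 fell by 0.60 on the log2 scale (SE 0.094, adjusted p = 0.000189). Bcl2 had 106 and 101 CPM before stimulation, 63.3 and 60.5 after 6 h and 82.5 and 64.0 after 18 h. Both stimulated groups were below the unstimulated cells and did not overlap with each other, although replicate 2 at 18 h came close to the 6 h libraries. The change of Bcl2 at 6 h was −0.74 ± 0.12 (log2, SE, adjusted p = 0.000208). Bcl2l1, the BCL-XL gene, had 10.0 and 13.1 CPM before stimulation, 7.07 and 5.68 after 6 h and 7.66 and 6.43 after 18 h. Its stimulated groups overlapped with each other and lay below the unstimulated libraries. The fall of Bcl2l1 at 6 h was −0.86 ± 0.17 (adjusted p = 0.00177), and it did not pass without replicate 2 at 0 h (adjusted p = 0.0598) or without replicate 2 at 6 h (adjusted p = 0.0535). Together, 3 of 6 tested members passed at 6 h, against 7.34% of all genes, and none was a DEG, against 2.62% of all genes. DESeq2 gave 3 passed and 0 DEGs, and 3 members had an unadjusted p under 0.05.

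By 18 h the members had parted. Mcl1 rose by 0.59 (SE 0.094, adjusted p = 5.07e-05) against unstimulated parental cells, whereas Bcl2, Bcl2l1 and Bcl2a1 fell. The change of Bcl2 was −0.51 ± 0.12 (adjusted p = 0.00178) and that of Bcl2l1 −0.73 ± 0.18 (adjusted p = 0.00252). Bcl2a1 had 19.66 and 19.97 CPM before stimulation, 17.9 and 20.4 after 6 h and 11.9 and 9.33 after 18 h. The first 2 times overlapped, and both libraries at 18 h lay below all others. Bcl2a1 did not change detectably at 6 h (−0.05 ± 0.19, adjusted p = 0.928) and fell by 0.92 at 18 h (SE 0.21, adjusted p = 0.00184). Among the single paralogs, Bcl2a1d passed as a DEG at −1.14 ± 0.22 (adjusted p = 0.000293), while Bcl2a1b at −0.87 (adjusted p = 0.0112) and Bcl2a1a at −0.65 (adjusted p = 0.0763) did not pass. In all, 4 of 6 members passed at 18 h, against 32.6% of all genes, and 1 was a DEG, against 10.3%. Replicate 2 of parental cells at 18 h carried much of this. Without it, Mcl1 alone passed (0.57, adjusted p = 0.00147), and no member was a DEG, with an adjusted p of 0.0564 for Bcl2, 0.0546 for Bcl2l1, 0.0131 for Bcl2a1d and 0.0432 for the Bcl2a1 sum, all still negative. Bcl2 also did not pass without replicate 1 at 0 h (adjusted p = 0.0149), nor Bcl2l1 without replicate 2 at 0 h (adjusted p = 0.0411).

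Between 6 and 18 h in parental cells, Mcl1 rose 2.29-fold (log2 1.19 ± 0.095, adjusted p = 1.12e-08), the largest rise of any tested member over time. Bcl2a1 fell over the same span (−0.87 ± 0.21, adjusted p = 0.00244), with Bcl2a1d at −1.08 (adjusted p = 0.000427) and Bcl2a1a at −0.97 (adjusted p = 0.00795). Bcl2 (0.24, adjusted p = 0.107) and Bcl2l1 (0.13, adjusted p = 0.587) did not pass. Thus 3 of 6 members passed, against 38.3% of all genes, and 2 were DEGs (Mcl1 and Bcl2a1d), against 13.5%. Of the 3, Bcl2a1a and Bcl2a1d share sequence and are not separate results. Leaving out replicate 2 at 18 h again removed the calls on Bcl2a1d (adjusted p = 0.0166), Bcl2a1a (adjusted p = 0.133) and the Bcl2a1 sum (adjusted p = 0.0512) but not that on Mcl1 (adjusted p = 7.83e-07). The sum also did not pass without replicate 2 at 6 h (adjusted p = 0.0195). Genes of B cell identity and the BCR moved over the same times. Of the 6 genes Cd79a, Cd79b, Ms4a1, Ighm, Pax5 and Ebf1, 4 were lower after 6 h in parental cells (median log2 change −0.40, all genes 0.01), 4 were higher after 18 h (median 0.47, all genes 0.04), and all 6 were higher at 18 h than at 6 h (median 0.92, all genes 0.03). From 6 to 18 h, 6 of them were higher in #A-59 (median 0.62) and 5 in #B-20 (median 0.59). Of all genes, 7.34% passed in parental cells after 6 h, 32.6% after 18 h and 38.3% from 6 to 18 h. Over that last span, 31.9% passed in #A-59 and 22.6% in #B-20. The part of these B cell genes in the course of Mcl1 was not tested.

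**Figure D4:**
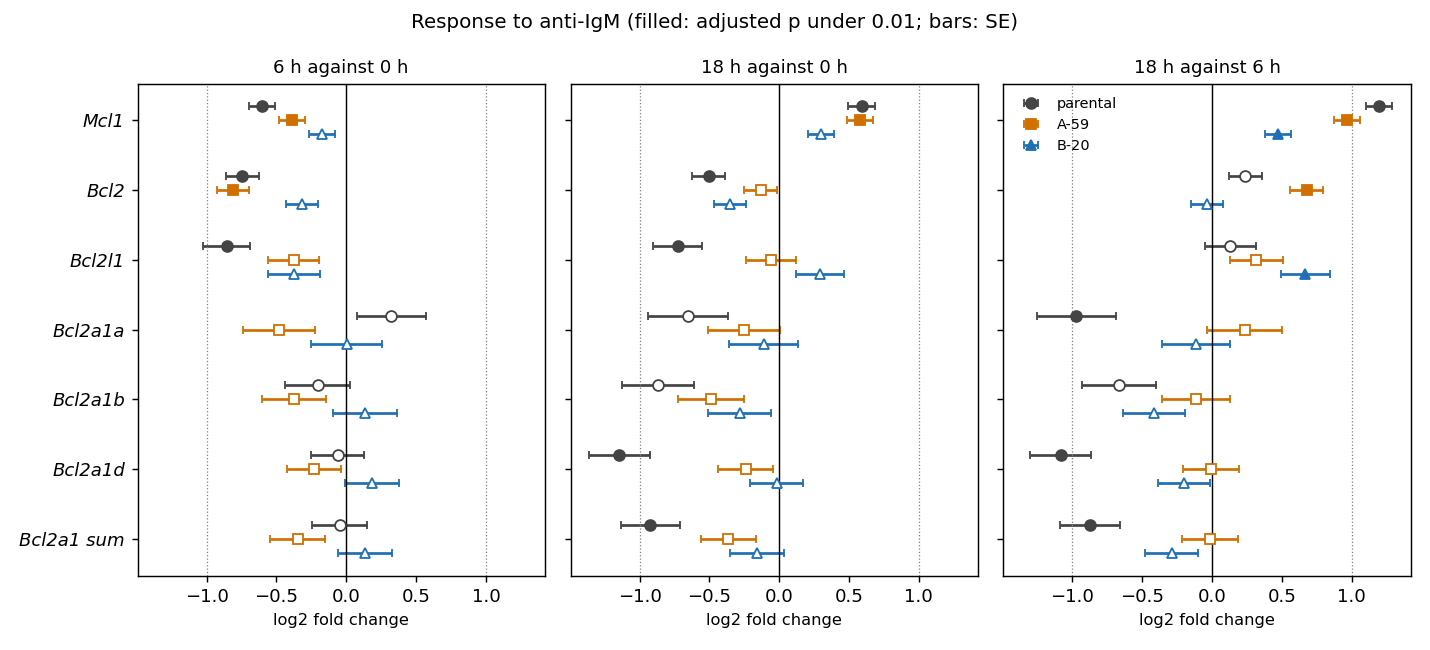
Log2 fold change (x axis, bars SE) of each tested member and of the Bcl2a1 sum (y axis) for 6 h against 0 h, 18 h against 0 h and 18 h against 6 h, by genotype, with filled symbols at an adjusted p under 0.01 and dotted lines at −1 and 1. Parental Mcl1 moves from −0.60 at 6 h to 0.59 at 18 h against 0 h, and the #B-20 symbols are unfilled in both comparisons against 0 h.

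In #A-59 cells, Mcl1 and Bcl2 fell within 6 h and rose between 6 and 18 h. Mcl1 had 1455 and 1519 CPM before stimulation, 1015 and 1261 after 6 h and 2364 and 2075 after 18 h, again with the lowest group at 6 h and the highest at 18 h. Bcl2 had 115 and 123 CPM before stimulation, 63.4 and 72.7 after 6 h and 116 and 101 after 18 h. The 6 h libraries of Bcl2 were apart, and those at 0 and 18 h overlapped. At 6 h, Bcl2 fell by 0.81 (SE 0.12, adjusted p = 0.000166) and Mcl1 by 0.39 (SE 0.093, adjusted p = 0.00997). The call on Mcl1 sits at the threshold and was lost when any of 13 libraries was left out, with adjusted p-values up to 0.0977 without replicate 1 of #A-59 at 6 h. Fitted with only the libraries compared, neither passed (adjusted p = 0.0263 for Bcl2 and 0.226 for Mcl1). Thus 2 of 6 members passed, against 6.14% of all genes, with 0 DEGs by edgeR and by DESeq2, against 1.39%.

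At 18 h against 0 h in #A-59, Mcl1 rose by 0.58 (SE 0.094, adjusted p = 6.62e-05) and was the 1 member of 6 that passed, against 31.8% of all genes. Bcl2 was back near its starting level (−0.13 ± 0.12, adjusted p = 0.370), and Bcl2l1 (−0.06, adjusted p = 0.814) and Bcl2a1 (−0.36 ± 0.20, adjusted p = 0.150) did not pass. No member was a DEG by edgeR or DESeq2, against 8.76% of all genes, and 1 had an unadjusted p under 0.05. From 6 to 18 h, Mcl1 rose by 0.96 (SE 0.094, adjusted p = 2.71e-07) and Bcl2 by 0.68 (SE 0.12, adjusted p = 0.000134). That made 2 of 6 members, against 31.9% of all genes, and 0 DEGs by both tools, against 9.02%. Bcl2l1 stayed between 5.07 and 7.44 CPM in all #A-59 libraries, and Bcl2a1 between 16.5 and 25.5 CPM.

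In #B-20 cells no member passed the test at 6 h or at 18 h against unstimulated cells. Mcl1 had 1446 and 1460 CPM before stimulation, 1316 and 1254 after 6 h and 1864 and 1706 after 18 h. The order of the times was that of the other genotypes, without overlap, with −0.18 ± 0.093 after 6 h (adjusted p = 0.394) as against 0.30 ± 0.093 after 18 h (adjusted p = 0.0189). Bcl2 had 180 and 164 CPM before stimulation, 148 and 128 after 6 h and 143 and 127 after 18 h, so that both stimulated groups overlapped with each other and lay below the unstimulated one. Its change after 6 h was −0.32 ± 0.12 (adjusted p = 0.178), and −0.35 ± 0.11 was reached after 18 h (adjusted p = 0.0231). At 6 h, 0 of 6 members passed by edgeR and by DESeq2, against 1.29% of all genes that passed and 0.385% that were DEGs, and 1 member had an unadjusted p under 0.05. At 18 h, 0 of 6 passed by both tools, against 22.8% and 4.8% of all genes, and 2 members had an unadjusted p under 0.05.

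The passed results of #B-20 over time lay between 6 and 18 h. Mcl1 rose by 0.47 (SE 0.093, adjusted p = 0.000684). Bcl2l1 had 7.96 and 8.05 CPM before stimulation, 6.25 and 6.07 after 6 h and 10.5 and 9.02 after 18 h, each group apart from the next, and rose by 0.67 (SE 0.18, adjusted p = 0.00640) from 6 to 18 h. In this clone Bcl2l1 at 18 h was thus the highest of its times, while in parental cells it was highest at 0 h. These 2 of 6 members stood against 22.6% of all genes, and 0 were DEGs by edgeR and DESeq2, against 4.45%. The call on Bcl2l1 was lost without any of 4 #B-20 libraries (adjusted p from 0.0103 to 0.0785) and with the GC correction (adjusted p = 0.0118), and that on Mcl1 without replicate 1 at 18 h (adjusted p = 0.0173) or replicate 2 at 6 h (adjusted p = 0.0177). Bcl2a1 in #B-20 had 20.7 and 31.1 CPM before stimulation, 23.9 and 33.3 after 6 h and 19.95 and 26.6 after 18 h, with all 3 groups overlapping and replicate 2 above replicate 1 each time.

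The next question was how the TFEB mutant clones differ from parental cells. In #A-59, 1 member passed at each time, and each time a different one. In unstimulated cells Bcl2l1 had 7.44 and 5.95 CPM in #A-59 against 10.0 and 13.1 CPM in parental cells, without overlap, and was lower by −0.77 ± 0.17 (log2, adjusted p = 0.00296). Mcl1 was 0.31 above parental cells, which did not pass (adjusted p = 0.0295). This was 1 of 6 members, against 9.56% of all genes, with 0 DEGs by edgeR and DESeq2, against 4.78%. Bcl2l1 did not pass without replicate 2 of #A-59 (adjusted p = 0.0566) or replicate 2 of parental cells (adjusted p = 0.0766).

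At 6 h, Mcl1 was higher in #A-59 (1015 and 1261 CPM) than in parental cells (786 and 795 CPM) by 0.53 (SE 0.094, adjusted p = 0.000260), which did not pass when only the libraries compared were fitted (adjusted p = 0.0255). Here 1 of 6 members passed, against 22.7% of all genes, and 0 were DEGs by both tools, against 7.91%. At 18 h, Bcl2 was higher in #A-59 (116 and 101 CPM against 82.5 and 64.0 CPM) by 0.57 (SE 0.12, adjusted p = 0.00180). Bcl2a1 had 16.5 and 18.8 CPM in #A-59 against 11.9 and 9.33 CPM, without overlap, and its difference of 0.75 ± 0.22 did not pass (adjusted p = 0.0224). At this time 1 of 6 members passed, against 10.4% of all genes, with 0 DEGs by both tools, against 4.92%, while 5 members had an unadjusted p under 0.05. Bcl2 did not pass without replicate 2 of parental cells at 18 h (adjusted p = 0.0786) or replicate 1 of #A-59 at 18 h (adjusted p = 0.0457), nor in a fit to only the libraries compared (adjusted p = 0.0154). The sum of the myeloid markers named above also reached higher levels in #A-59, mostly through Itgam. Of the 3 that were tested, 1, 2 and 1 were higher than in parental cells at 0, 6 and 18 h, with none lower. Their median log2 difference was −0.62, 2.34 and 1.74 at these times, so the markers did not move as a set. Their part in the differences of the members was not tested.

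**Figure D5:**
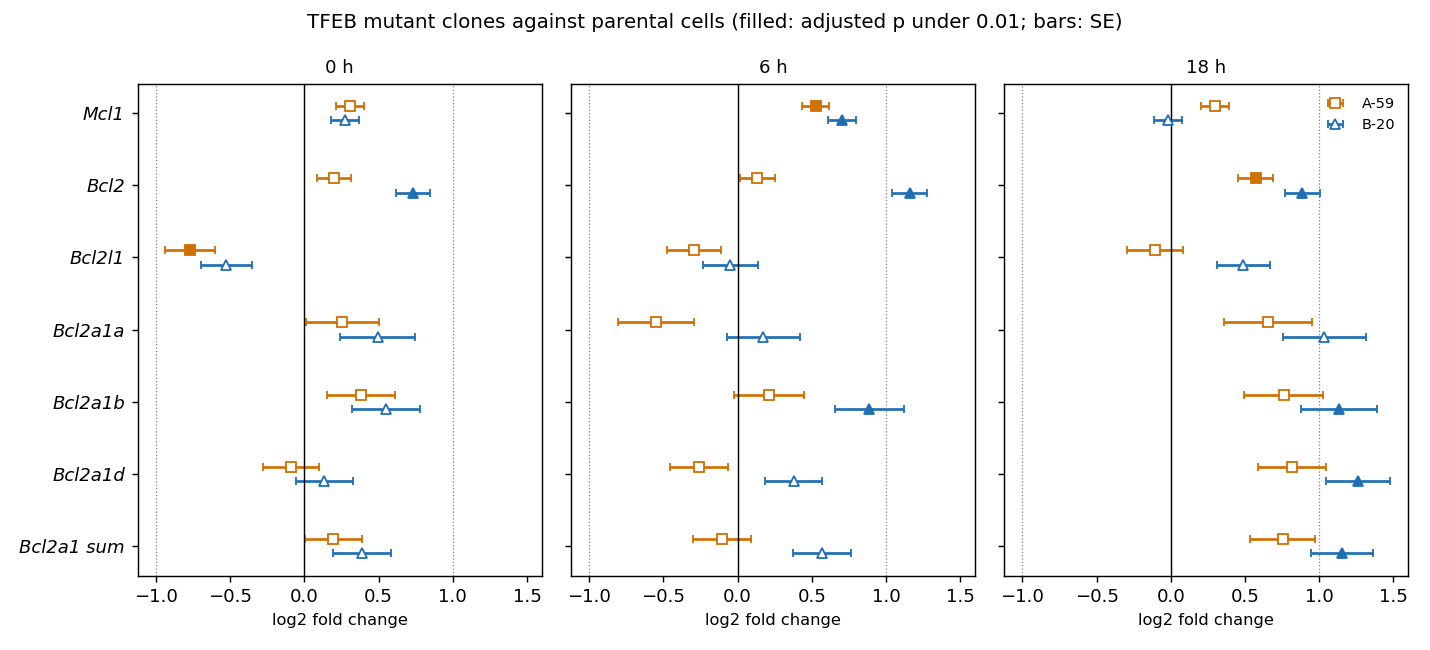
Log2 fold change (x axis, bars SE) of #A-59 and #B-20 against parental cells for each tested member and the Bcl2a1 sum (y axis) at 0, 6 and 18 h, with filled symbols at an adjusted p under 0.01 and dotted lines at −1 and 1. Bcl2 in #B-20 is filled at each time (0.73, 1.16 and 0.89), and the Bcl2a1 symbols of #B-20 lie past 1 at 18 h.

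In #B-20, Bcl2 was above parental cells at all 3 times. Its 6 libraries had 127 to 180 CPM, and the 6 parental libraries 60.5 to 106 CPM, so that no #B-20 library at any time reached down to a parental one. The difference before stimulation was 0.73 ± 0.12 (adjusted p = 0.000136). It reached 1.16 ± 0.12 after 6 h (adjusted p = 4.76e-07), and after 18 h it was 0.89 ± 0.12 (adjusted p = 1.60e-05). At 6 h it was 2.23-fold and Bcl2 was a DEG. These calls were kept under each alternative processing and without each single library.

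Further members passed against parental cells at 6 and 18 h, which does not by itself show a change with stimulation. At 0 h, Bcl2 was the 1 member of 6 that passed, against 10.7% of all genes, and there was no DEG by edgeR or DESeq2, against 5.16%. Bcl2l1 lay lower in unstimulated #B-20 (7.96 and 8.05 CPM against 10.0 and 13.1 CPM), which did not pass (−0.53 ± 0.17, adjusted p = 0.0407). Mcl1 (0.28 ± 0.093, adjusted p = 0.0484) and the Bcl2a1 sum (0.39 ± 0.20, adjusted p = 0.196) lay higher there and did not pass either. At 6 h, Mcl1 was higher as well (1316 and 1254 CPM against 786 and 795 CPM, log2 0.70 ± 0.094, adjusted p = 1.52e-05), as was Bcl2a1b (0.89 ± 0.23, adjusted p = 0.00912). The Bcl2a1 sum did not pass at 6 h (0.57 ± 0.19, adjusted p = 0.0421), and the call on Bcl2a1b was lost when any of 11 libraries was left out, with an adjusted p of 0.151 without replicate 2 of #B-20 at 6 h, and with the GC correction (adjusted p = 0.0280). In all, 3 of 6 members passed at 6 h, against 14.2% of all genes, and 1 was a DEG, against 6.73%.

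At 18 h the largest member difference between #B-20 and parental cells was in Bcl2a1. The sum had 19.95 and 26.6 CPM in #B-20 and 11.9 and 9.33 CPM in parental cells, without overlap, and was 2.23-fold higher (log2 1.15 ± 0.21, adjusted p = 0.000575). Bcl2a1d had 7.60 and 9.39 CPM against 3.92 and 3.26 CPM (1.26 ± 0.22, adjusted p = 0.000247), and Bcl2a1b 8.66 and 12.3 CPM against 5.44 and 4.25 CPM (1.14 ± 0.26, adjusted p = 0.00313). Bcl2a1a at 1.04 ± 0.28 did not pass (adjusted p = 0.0109). Mcl1 did not differ detectably (−0.02 ± 0.093, adjusted p = 0.923), and Bcl2l1 did not pass (0.49 ± 0.18, adjusted p = 0.0537). Thus 3 of 6 members passed, against 14.2% of all genes, and 2 were DEGs, against 6.21%. Both DEGs were Bcl2a1b and Bcl2a1d, which share sequence, so they are not 2 separate results. Without replicate 2 of parental cells at 18 h, Bcl2 alone passed (0.71, adjusted p = 0.00149). The adjusted p was then 0.0262 for the Bcl2a1 sum, 0.0167 for Bcl2a1d and 0.0866 for Bcl2a1b, and the log2 differences were 0.97, 1.11 and 0.94. Bcl2a1b also did not pass without replicate 2 of #B-20 at 18 h (adjusted p = 0.0470). The lowest group of the 9 for the sum was parental at 18 h, with 10.6 ± 1.79 CPM (SD, n = 2), while the other 8 groups had means of 17.6 to 28.6 CPM.

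Set against each other, the mutant clones differed past the threshold in 1 member, Bcl2. In unstimulated cells, it was higher in #B-20 than in #A-59 by 0.53 (SE 0.12, adjusted p = 0.00359), and after 6 h by 1.03 (SE 0.12, adjusted p = 3.73e-06), where #B-20 had 148 and 128 CPM and #A-59 63.4 and 72.7 CPM. At 18 h the difference of 0.31 ± 0.12 did not pass (adjusted p = 0.0523). At 0 h, 1 of 6 members passed, against 8.41% of all genes, with 0 DEGs by edgeR and DESeq2, against 3.85%, and the call was lost without any 1 of the 4 libraries compared (adjusted p from 0.0120 to 0.0597). At 6 h, 1 of 6 passed and was a DEG, against 18.7% and 5.82% of all genes, while 4 members had an unadjusted p under 0.05. The Bcl2a1 sum was higher in #B-20 at 6 h by 0.68 ± 0.20, which did not pass (adjusted p = 0.0149). At 18 h, 0 of 6 passed by edgeR, against 16.2% of all genes, and 0 were DEGs, against 4.82%, while DESeq2 passed 1 member and 4 had an unadjusted p under 0.05. Those at 18 h included Bcl2l1 (0.60 ± 0.17, adjusted p = 0.0163) and Mcl1 (−0.31 ± 0.093, adjusted p = 0.0178).

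Whether a clone responds differently from parental cells is asked by the interaction, which subtracts the parental response from that of the clone. No member passed this test in either clone at either time. For #A-59 at 6 h, 0 of 6 passed by edgeR and DESeq2, against 0.646% of all genes that passed and 0.339% that were DEGs, and 1 had an unadjusted p under 0.05. For #A-59 at 18 h it was 0 by both tools, against 0.0392% and 0.0326%, with 3 at an unadjusted p under 0.05. For #B-20 at 6 h, 0 passed by both tools, against 0.183% and 0.131%, with 2 at an unadjusted p under 0.05. For #B-20 at 18 h, 0 passed by both tools, against 0.222% and 0.163%, with 3 at an unadjusted p under 0.05. Few genes of any kind passed these tests, and the member values are estimates with wide errors. At 18 h, the response of #B-20 exceeded the parental one by 1.02 ± 0.25 for Bcl2l1 (adjusted p = 0.0667), by 1.13 ± 0.29 for Bcl2a1d (adjusted p = 0.0833) and by 0.77 ± 0.29 for the Bcl2a1 sum (adjusted p = 0.249). At 6 h, it exceeded the parental one by 0.43 ± 0.13 for Mcl1 (adjusted p = 0.235) and by 0.43 ± 0.16 for Bcl2 (adjusted p = 0.437). Accordingly, a response that passed in parental cells and not in #B-20 is not shown to differ between them.

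Across the 9 groups, the levels of each member can be put in order, with CPM means of 2 libraries. For Bcl2 the order ran from 172 in #B-20 at 0 h over 138 and 135 in #B-20 at 6 and 18 h, 119 (0 h) and 109 (18 h) in #A-59 and 104 in parental cells at 0 h to 73.3 in parental cells at 18 h, 68.0 in #A-59 at 6 h and 61.9 in parental cells at 6 h. Neighbours overlapped within #B-20 after stimulation, among the groups from 119 to 104, and between 73.3 and 68.0. For Mcl1, #A-59 at 18 h was highest (2220), followed by parental cells (1807) and #B-20 (1785) at 18 h, which overlapped, and parental cells at 6 h were lowest (790.1). Between the group of the highest mean and the lowest there was a factor of 2.81 for Mcl1, 2.78 for Bcl2, 2.70 for the Bcl2a1 sum and 2.23 for Bcl2l1. Bcl2l1 was highest in unstimulated parental cells (11.6) and lowest in #A-59 at 6 h (5.18). The Bcl2a1 sum was highest in #B-20 at 6, 0 and 18 h (28.6, 25.9 and 23.3), with overlap between neighbours, and lowest in parental cells at 18 h (10.6), which overlapped with no other group.

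The other genes of the pathway were read from lists of the family and its regulators, given as counts of genes that passed beside the percentages above. Of 8 BH3-only genes, the direct antagonists of the survival proteins, 7 were tested, and Hrk had 0 to 2 counts. Higher in #A-59 than in parental cells were 3, 5 and 2 of them at 0, 6 and 18 h, and higher in #B-20 were 2, 3 and 4, with none lower. Of all genes, 9.56, 22.7 and 10.4% passed in #A-59 and 10.7, 14.2 and 14.2% in #B-20. The median log2 difference of the list was 0.20, 0.52 and 0.35 for #A-59 and 0.37, 0.58 and 0.63 for #B-20, beside −0.02 to 0.01 for all genes. Pmaip1, which encodes the MCL1 and A1 antagonist NOXA, had 118 and 111 CPM in unstimulated parental cells, 221 and 271 CPM in #A-59 and 270 and 272 CPM in #B-20. It was higher by 1.10 ± 0.16 (adjusted p = 7.77e-05) in #A-59 and by 1.25 ± 0.16 (adjusted p = 2.19e-05) in #B-20. Bik was higher in unstimulated #A-59 by 1.34 (adjusted p = 0.00284) and after 6 h by 1.63 (adjusted p = 0.000433), at levels of at most 2.17 CPM. Bmf was higher in both clones at each time, by 1.12 to 2.15. In response to anti-IgM, 2 of the list were higher and 1 lower at 18 h in parental cells (all genes 32.6%) and likewise in #A-59 (31.8%). #B-20 had 3 higher and 1 lower (22.8%). After 6 h, parental cells had 1 higher and 1 lower (all genes 7.34%), #A-59 had 1 lower (6.14%) and #B-20 had 0 (1.29%).

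Of the effectors, Bax and Bak1 were tested, and Bok had 0 to 3 counts. Neither was higher in any clone or response. Lower were 1 in #B-20 at 0 h (all genes 10.7%) and 2 at 6 h (14.2%) against parental cells. At 18 h against 0 h, 1 was lower in parental cells (32.6%) and in #A-59 (31.8%). Among 6 further Bcl-2 homologs, of which 5 were tested, Bcl2l15 stood apart. Bcl2l15, described as a weakly proapoptotic family member, had 239 to 380 CPM in parental libraries and 3.55 to 9.03 CPM in the clones. It was lower by −6.27 to −5.55 in #A-59 and by −5.80 to −4.96 in #B-20 (adjusted p at most 2.34e-14). Bcl2l14 was lower in unstimulated #A-59 by −1.22 (adjusted p = 0.00109) and after 18 h by −1.24 (adjusted p = 0.000731), and in #B-20 it was higher at 6 h (0.90, adjusted p = 0.00442). The list had 3, 2 and 2 lower genes in #A-59, when 9.56, 22.7 and 10.4% of all genes passed. In #B-20 it had 1 lower at each time, when 10.7, 14.2 and 14.2% of all genes passed.

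Regulators of MCL1 protein turnover were read as a further list. Of 6 ubiquitin ligases and deubiquitinases (Huwe1, Fbxw7, Btrc, Marchf5, Usp9x, Usp13), 5 were tested, and 1 of them passed against parental cells, as lower in #A-59 at 6 h, when 22.7% of all genes passed. At 18 h against 0 h, parental cells had 1 higher and 1 lower (all genes 32.6%), #A-59 had 1 lower (31.8%) and #B-20 had 2 lower (22.8%). From 6 to 18 h, 2 were higher and 1 lower in parental cells, against 38.3% of all genes, #A-59 had 1 higher and 1 lower (31.9%) and #B-20 had 0 (22.6%). Of 10 transcription factors with known sites at member genes (NF-κB subunits, Stat3, Stat5a, Stat5b, Creb1, Bcl6), 4 were lower in parental cells after 6 h, when 7.34% of all genes passed. The count was 4 in #A-59, with 6.14% of all genes, and 0 in #B-20, with 1.29%, and the difference between a clone's response and the parental one passed for none of the 10 at either time. Relb, an NF-κB subunit, had 62.0 and 75.4 CPM in unstimulated parental cells and 35.2 and 28.2 CPM at 18 h (−1.13 ± 0.18, adjusted p = 8.92e-05), and its change at 6 h was −0.92 ± 0.18 (adjusted p = 0.00169). In #A-59 it was lower at 6 h (−1.33 ± 0.18, adjusted p = 0.000151) and did not pass at 18 h (−0.44 ± 0.17, adjusted p = 0.0511).

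Among 5 survival receptors of B cells, 4 were tested, and Tnfrsf17 had 0 to 1 counts. Cd40, through which T cells raise Bcl2l1 and Bcl2a1, had 199 and 205 CPM in unstimulated parental cells, 60.8 and 51.6 after 6 h and 72.0 and 56.7 after 18 h. The unstimulated libraries were well apart from both stimulated groups, and the fall came to −1.84 ± 0.14 after 6 h (adjusted p = 9.13e-08), against −1.65 ± 0.14 after 18 h (adjusted p = 6.97e-08). Cd40 also fell in #A-59 (−1.11 at 6 h) and #B-20 (−1.04 at 6 h), and at 6 h it was higher than in parental cells by 1.07 in #A-59 and 1.05 in #B-20. Cd27, a receptor of the TNF receptor family, rose over 18 h by 1.24 in the parental line, by 1.43 in #A-59 and by 1.08 in #B-20. Over the list, 2 receptors were higher and 1 lower at 18 h against 0 h in each genotype. The share of all genes that passed there was 32.6% (parental), 31.8% (#A-59) and 22.8% (#B-20). Set against the parental line, #A-59 had 1, 2 and 1 receptors higher at 0, 6 and 18 h and none lower. At these times #B-20 had 1, 2 and 2 higher, with 1 lower at 0 h and 1 at 18 h. The matching shares of all genes were 9.56, 22.7 and 10.4% (#A-59) and 10.7, 14.2 and 14.2% (#B-20).

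TFEB binds E-box sites with the core CACGTG, and the palindrome TCACGTGA forms the centre of the CLEAR element of its lysosomal targets. In the RefSeq promoter windows of the members (250 bases before to 50 bases after each start, GRCm38.p6), neither sequence occurred on either strand. CACGTG was present in 7.15% and TCACGTGA, which contains it, in 0.974% of all 32851 windows, so most genes lack them here, and nothing follows about binding elsewhere. The kappaB consensus of the NF-κB subunits had a match in 1 of the 9 member windows, compared with 8.46% of all windows. The match lay 242 to 233 bases before a start of Bcl2l1 and is shown in capitals with its flanks, from chr2:152830938-152830967 on the minus strand, as the single match among the members.
Bcl2l1: tgtttgtgGGGGGTCTCCagcatacgcctc
The starts of Bcl2a1a and Bcl2a1b are near copies of each other too. Aligned without gaps over 256 bases, the windows of Bcl2a1a and Bcl2a1b differed at 2 positions (99.2% identical). The window of Bcl2a1d was 66.3% identical to that of Bcl2a1a over 300 bases and 73.05% to that of Bcl2a1b over 256 bases. An insertion or deletion between copies would lower such a value. A stretch of 60 bases upstream of the starts is shown for the 3 genes, with its single differing position in capitals. It lies directly before the start of Bcl2a1a and Bcl2a1d, and 104 to 45 bases before the annotated start of Bcl2a1b, a shift of 44 bases. They lie at chr9:88956860-88956919 and chr9:89199169-89199228 on the plus strand and chr9:88731851-88731910 on the minus strand (GRCm38.p6).
Bcl2a1a: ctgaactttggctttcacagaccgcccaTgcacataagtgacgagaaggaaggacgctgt
Bcl2a1b: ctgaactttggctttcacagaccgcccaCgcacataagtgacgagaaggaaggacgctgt
Bcl2a1d: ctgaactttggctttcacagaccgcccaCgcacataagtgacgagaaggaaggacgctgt
These matches are a description of sequence and were not set against the measured changes.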

How the data were processed

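Gene counts of 18 libraries of WEHI-231 cells were analysed. The deposited tables hold raw counts, as whole numbers of reads for each Ensembl gene. Per the study's methods, they come from non-stranded single-end libraries read for 50 bases. The submitters' processing notes name bcl2fastq 2.20.0.422 (the methods give another version of it), STAR 2.5, GRCm38 and featureCounts 1.5.0-p1. Without strand, reads of overlapping antisense genes cannot be separated, and D630008O14Rik, antisense to Bcl2 over 558 bases, had 1 to 16 counts. Symbols came from GENCODE vM39 (93.23% of identifiers matched), coding sequences from GENCODE vM39 (GRCm39) and promoter windows from RefSeq (GRCm38.p6).

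Genes with low counts were removed with filterByExpr of edgeR 4.0.16 (R 4.3.3), libraries were TMM-scaled, and a robust quasi-likelihood model with 1 mean per group was fitted to all libraries. CPM values are TMM-scaled. Each comparison had its p-values adjusted over all genes tested (Benjamini-Hochberg). DEGs followed the study's rule (adjusted p under 0.01 and log2 fold change above 1 or below −1). The Bcl2a1 sum replaced its 3 genes in a second fit. Scripts were tested on simulated data. The alternatives were DESeq2 1.42.0, its size factors, other filters, only the libraries compared, a replicate block, a GC correction with and without that block, and leaving out each library.

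Library totals of 11223588 to 29655262 counts set the precision. Ranges of counts run from the lowest to the highest library, and so hold differences between groups and in depth besides counting error. Replicates are independent experiments per the study, and differed by more than sampling noise in each group (chi-square per degree of freedom 3.57 to 58.2). With 2 per group, p-values rest on the spread between these samples within groups. That spread was estimated for each gene over all 9 groups together and moderated across genes. It is therefore not the spread of the compared libraries alone. The members and gene lists were chosen with earlier results of these data known. Named with values were all members, Tfeb and, of each list, up to 3 DEGs with the largest change against parental cells or in a response. A list of each kind stands in the text: BH3-only genes, effectors, other homologs, MCL1 turnover, transcription factors, survival receptors, and T cell and myeloid markers. The list of B cell markers is not reported here as a whole, and 6 of its genes were read in its place.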

Additional observations from a re-analysis of the deposited data

How the results depend on the processing

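Of the 29 member results that passed, 12 were kept under every alternative and without any single library, all of them in Bcl2 or Mcl1, and 23 under every alternative that keeps all libraries. No called change turned its direction. Without replicate 2 of parental cells at 18 h, 10 of the 29 were lost. DESeq2 and the model with no filter on low counts kept 29, and a fit to only the libraries compared lost 5.

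The number of members that passed moved as follows, with smaller shifts of counts above 0 not all listed. For parental cells at 18 h against 0 h it was 4, and 5 with DESeq2, no filter, only the libraries compared or the replicate block. At 18 h against 6 h it was 3 in parental cells, and 4 with no filter or only the libraries compared. For #B-20 against parental cells at 18 h it was 3 with 2 DEGs, and 4 with 3 DEGs by DESeq2. For #A-59 at 6 h against 0 h it was 2, and 1 with DESeq2 size factors or at least 10 counts in every library and 0 with only the libraries compared. For #B-20 at 18 h against 0 h it was 0, and 1 with no filter or with the GC correction. For #B-20 at 18 h against 6 h it fell from 2 to 1 with only the libraries compared or with the GC correction. Against parental cells, #A-59 had 1 at 6 h and 0 with only the libraries compared, and at 18 h 1, but 4 with no filter and 3 with only the libraries compared. For #B-20 against #A-59 it was 1 at 6 h and 2 with no filter, and at 18 h 0, but 1 with DESeq2 and 2 with no filter or the GC correction. For the #B-20 response at 18 h it was 0 and 2 with no filter, both as DEGs. The DEG count of #B-20 against #A-59 at 6 h went from 1 to 0 with no filter, with the GC correction and with that correction and the block.

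The replicate numbers of the labels were not taken to pair the samples, since no label says what a number shares and deviations of same-numbered libraries correlated above 0.1 in only 14 of 36 pairs of groups (−0.0258 to 0.320, median 0.0777). With the replicate block, #A-59 against parental cells at 18 h had 2 members in place of 1 and #B-20 against #A-59 at 6 h 2 in place of 1. With the GC correction and the replicate block together, members that passed were 2 for #B-20 at 18 h against 0 h, 2 for #A-59 against parental cells at 0 h and 2 at 18 h, 5 for #B-20 against parental cells at 18 h, 3 for #B-20 against #A-59 at 18 h, and 1, also a DEG, for the #B-20 response at 18 h. The block lost none of the 29. The cause of these shifts was not tested.

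Read as single genes in place of the sum, Bcl2a1a (−0.65, adjusted p = 0.0763) and Bcl2a1b (−0.87, adjusted p = 0.0112) did not pass at 18 h against 0 h in parental cells, nor Bcl2a1b at 18 h against 6 h (−0.67, adjusted p = 0.0442), nor Bcl2a1a in #B-20 against parental cells at 18 h (1.04, adjusted p = 0.0109). Adding Bcl2a1c to the sum changed no call.

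Leaving out 1 library at a time, members that passed ranged from 1 to 5 for parental cells at 18 h against 0 h, 1 to 3 at 18 h against 6 h, 1 to 2 for #A-59 at 6 h, 0 to 2 for #B-20 at 18 h against 0 h and against 6 h, 0 to 2 for #A-59 against parental cells at 0 h and at 18 h, 1 to 2 for #B-20 against parental cells at 0 h and 1 to 4 at 18 h, and 0 to 1, 1 to 2 and 0 to 1 for #B-20 against #A-59 at 0, 6 and 18 h. DEGs ranged from 0 to 1 for parental cells at 6 h and at 18 h against 0 h, 1 to 3 at 18 h against 6 h, 0 to 1 for #A-59 at 18 h against 6 h, 1 to 2 and 0 to 3 for #B-20 against parental cells at 6 and 18 h, and 0 to 1 for #B-20 against #A-59 at 6 h. The Bcl2a1 sum ranged from −1.12 to −0.76 for parental cells at 18 h against 0 h, −1.07 to −0.71 at 18 h against 6 h, and 0.94 to 1.36 for #B-20 against parental cells at 18 h. Depth limits Bcl2l2, with 1 to 8 counts, and Bcl2a1, with 133 to 713.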

Other observations

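Over the 18 libraries, the genes whose log2 CPM followed each member most closely were listed among 8936 genes with a mean of at least 10 CPM (8937 for Bcl2l1, whose own mean was lower). For Mcl1 they were Arhgef3 (Pearson r = 0.981), Skil (0.977) and Hhex (0.974). For Bcl2 they were Peli1 (0.947), Heatr6 (0.935) and Zbtb10 (0.919). For Bcl2l1 they were Il21r (0.840), Runx3 (0.834) and Sufu (0.813), and for the Bcl2a1 sum Fam219b (0.893), Cand1 (0.891) and Zfp330 (0.889). Libraries of a group share their condition and the values share library size, so these are descriptions without a test.

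Among the members themselves, Bcl2 and the Bcl2a1 sum had r = 0.610, Bcl2 and Mcl1 0.447, Bcl2 and Bcl2l1 0.401, Mcl1 and Bcl2l1 0.164, Bcl2l1 and the sum 0.0760, and Mcl1 and the sum −0.210, all over 18 libraries.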
